A study of Mus musculus with 12 samples.

Results

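The 7 genes described here, Ccl3, Ccl4, Ccl5, Xcl1, Cxcl9, Cxcl10 and Cxcl16, encode chemokine ligands, and they were taken from a table of 35275 mouse genes measured by RNA-Seq in CD4+ T cells. They were chosen because Ccl3 was higher after treatment and because the response of Ccl5 differed between the strains, so those values are given as a description with no test. The ligand lists hold 39 genes in all, of which the 32 others were in the table as well. Genes were tested where their mean level was 0.5 FPKM or more, which held for 5 of the 7 members and 7 of the 32 other ligands. FPKM is the number of fragments of a gene divided by transcript length and by the library total, so it can be compared between genes.

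CD4+ T cells came from untreated B6 mice (strain C57BL/6), treated B6 mice, untreated SLE123 mice (strain B6.NZMSle1/Sle2/Sle3) and treated SLE123 mice, with 3 mice and 3 libraries in each group. SLE123 mice carry the lupus susceptibility loci Sle1, Sle2 and Sle3 from the NZM2410 strain on a B6 background and develop lupus-like disease with age. Treated mice were given 100 ug of the anti-CD45RB antibody MB23G2 in each of 5 injections over days 0 to 7, and no control antibody is named for the untreated mice. All mice were females of 9 to 12 weeks. Cells were enriched by negative magnetic selection, and the methods also describe a split into CD25+ and CD25- cells that no library title names.

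Chemokines are small secreted proteins that guide leukocytes along concentration gradients by binding G protein-coupled receptors. CC ligands such as Ccl3, Ccl4 and Ccl5 attract T cells, monocytes and NK cells, while Cxcl9 and Cxcl10 are induced by interferon and attract activated T cells through Cxcr3. Xcl1 attracts cross-presenting dendritic cells through Xcr1, and Cxcl16 is made as a membrane-bound protein that binds Cxcr6.

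The libraries held 13562933 to 23641603 fragments, and genes of the T cell receptor complex were abundant in each, with Cd3e between 274 and 401 FPKM and Cd4 between 237 and 327 FPKM. Immunoglobulin genes took 5.28% to 12.8% of the fragments in untreated SLE123 mice, 2.63% to 5.57% in treated SLE123 mice and 0.0936% to 0.355% in B6 mice. Alb, the liver gene for serum albumin, lay between 24.7 and 30.7 FPKM in the 6 B6 libraries and treated SLE123 mouse 1, and between 0 and 0.0296 FPKM in the other 5. Untreated SLE123 mouse 3 had the highest sum of B cell markers, 217 FPKM against 61.0 and 83.6 in the other two mice of its group. The interactions of Ccl4 and Xcl1 and the strain averages of Ccl3, Ccl4 and Cxcl10 are therefore also given without 2 libraries that stand apart. These are treated SLE123 mouse 1 and untreated SLE123 mouse 3, and other SLE123 results are not given that way.

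Promoter sequences of Ccl3 and Cxcl10 are shown because Ccl3 had the largest ratio between group means among the members that passed the filter and Cxcl10 the largest difference between the strains averaged over treatment. Both are RefSeq sequences of GRCm38.p6 that run from 250 bases before to 50 bases after the start of the gene on its minus strand. Capitals mark matches on either strand to the ISRE (GAAA, any 2 bases, then GAAA), to AP-1 as TGANTCA, to the NFAT core GGAAAA or to the kappaB consensus.
Ccl3, chr11:83649329-83649628: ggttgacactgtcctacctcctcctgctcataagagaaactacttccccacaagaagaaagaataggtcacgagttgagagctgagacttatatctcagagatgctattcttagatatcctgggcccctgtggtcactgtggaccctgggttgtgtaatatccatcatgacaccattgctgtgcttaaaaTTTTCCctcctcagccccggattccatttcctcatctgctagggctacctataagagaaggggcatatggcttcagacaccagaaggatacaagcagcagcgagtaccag
Cxcl10, chr5:92348840-92349139: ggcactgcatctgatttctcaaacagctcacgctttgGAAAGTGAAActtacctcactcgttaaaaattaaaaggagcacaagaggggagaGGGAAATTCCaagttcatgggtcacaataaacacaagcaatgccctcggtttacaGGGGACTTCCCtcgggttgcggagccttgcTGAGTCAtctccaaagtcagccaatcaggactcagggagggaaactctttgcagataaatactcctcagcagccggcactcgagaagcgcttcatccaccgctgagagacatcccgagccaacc
The Cxcl10 promoter held an ISRE match from -213 to -204, an AP-1 match from -74 to -68 and kappaB matches starting at -159, -104 and -103, the last pair overlapping. The Ccl3 promoter held the NFAT core on the opposite strand from -60 to -55. Of 32851 promoters of this length, 3.44% held the ISRE, 7.81% AP-1, 8.46% kappaB and 23.4% the NFAT core. The same search covered the GAS motif TTCNNNGAA, the CRE half-site TGACG and TATAAA, none of which was found in either of these windows and which occurred in 8.30%, 20.8% and 13.6% of all promoters. The letters describe these windows only and say nothing of which factors bound them. RefSeq promoters were also matched for Xcl1 and Cxcl9 but not for Ccl4, Ccl5 and Cxcl16.

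Ccl3 (ENSMUSG00000000982, chr11:83647844-83649355, minus strand) encodes MIP-1 alpha, a CC ligand made by activated T cells, NK cells and myeloid cells. In untreated B6 mice it was at 1.13, 0.361 and 0.730 FPKM, and treated B6 mice had 15.1, 7.97 and 16.8 FPKM. Every treated B6 mouse was above every untreated one, and the means were 13.3 ± 4.70 and 0.741 ± 0.386 FPKM (SD, n = 3 each), an 18.0-fold ratio. In untreated SLE123 mice Ccl3 was at 5.06, 6.85 and 6.74 FPKM, above all untreated and below all treated B6 mice. Treated SLE123 mice had 16.8, 11.4 and 13.6 FPKM, which overlapped treated B6 mice and lay above all untreated SLE123 mice. On the log2(FPKM + 1) scale the difference between treated and untreated mice was 3.0 ± 0.28 (SE) in B6 and 1.04 ± 0.16 in SLE123, and these responses differed by -1.96 ± 0.36. The rule that chose Ccl3 used this response, so these values carry no test, and the fragments behind them numbered 5 to 14 per library in untreated B6 mice and 64 to 217 elsewhere. The libraries are bulk RNA, so here and below fewer cells of a type and less RNA per cell cannot be told apart.

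Ccl4 (ENSMUSG00000018930, chr11:83662584-83664683, plus strand) encodes MIP-1 beta, a CC ligand whose gene neighbours Ccl3. It was at 0.564, 0.251 and 0.753 FPKM in untreated B6 mice and at 6.81, 3.79 and 6.22 FPKM in the treated ones, with no overlap. Ccl4 rose in treated B6 mice by 2.10 ± 0.21 (SE) on the log2(FPKM + 1) scale (limma, Benjamini-Hochberg adjusted p = 0.00233), a 10.7-fold ratio of mean FPKM. In SLE123 mice it was at 4.77, 4.62 and 7.63 FPKM before and at 6.93, 6.67 and 8.76 FPKM after treatment, and these groups overlapped. The SLE123 difference was 0.36 ± 0.19 with a 95% interval from -0.08 to 0.80 (limma adjusted p = 0.485). The difference between the strains' responses was -1.74 ± 0.31 (limma interaction, adjusted p = 0.0117), and it was -1.50 (adjusted p = 0.0414) without treated SLE123 mouse 1 and untreated SLE123 mouse 3. With a pseudocount of 0.1 the B6 difference was 3.25 and the interaction -2.83, both still called.

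Ccl5 (ENSMUSG00000035042, chr11:83525778-83530518, minus strand) encodes RANTES, a late product of activated and memory T cells that attracts T cells and monocytes. It was at 56.3, 56.4 and 59.8 FPKM in untreated B6 mice and treated B6 mice had 166, 205 and 229 FPKM. Untreated SLE123 mice had 121, 151 and 126 FPKM, and treated SLE123 mice 105, 114 and 97.6 FPKM. The treated B6 mice were the highest of the 12 and the untreated B6 mice the lowest, with both SLE123 groups in between and the treated SLE123 mice below the untreated ones. The log2(FPKM + 1) difference was 1.77 ± 0.11 (SE) in B6 and -0.32 ± 0.11 in SLE123, and the difference between these responses was -2.09 ± 0.16. Rescaled to TPM, the SLE123 difference was -0.13. The choice of Ccl5 rested on that difference, which therefore has no test, and the same holds for the comparison of the untreated strains. Ccl5 made up the largest share of the summed FPKM of all 39 ligands in every library, from 67.9% to 78.1% in treated B6, from 69.4% to 74.3% in untreated B6, from 58.8% to 63.6% in treated SLE123 and from 66.1% to 74.4% in untreated SLE123 mice.

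Xcl1 (ENSMUSG00000026573, chr1:164931644-164935527, minus strand) encodes lymphotactin, which NK cells and activated T cells secrete. It was at 12.3, 9.94 and 13.9 FPKM in untreated B6 mice and at 16.8, 18.7 and 18.6 FPKM in treated B6 mice, with no overlap. Xcl1 rose in treated B6 mice by 0.55 ± 0.11 (SE) on the log2(FPKM + 1) scale (limma adjusted p = 0.0230), a 1.5-fold ratio of mean FPKM. The adjusted p was 0.0933 when all 12 mice shared one fit, and 0.0682, 0.0717 and 0.0640 without treated B6 mouse 3, treated B6 mouse 5 and untreated B6 mouse 3. SLE123 mice had 9.60, 15.7 and 14.6 FPKM without treatment and 24.4, 17.1 and 19.6 FPKM with it, again without overlap. The SLE123 difference was 0.60 ± 0.20, close to that of B6, and did not pass the test (limma adjusted p = 0.465). The responses differed by 0.04 ± 0.25 with a 95% interval from -0.50 to 0.59 (limma interaction, adjusted p = 0.933). A difference of either sign within that interval is not excluded. Xcl1 shares 100 bases with the predicted gene Gm20743 on the other strand, and without a stated strand setting their fragments cannot be told apart.

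Cxcl10 (ENSMUSG00000034855, chr5:92346638-92348889, minus strand) encodes IP-10, the interferon-inducible Cxcr3 ligand. B6 mice had 1.30, 1.47 and 1.99 FPKM without treatment and 2.83, 4.13 and 2.28 FPKM with it. The B6 groups did not overlap, but the difference of 0.64 ± 0.18 (SE) on the log2(FPKM + 1) scale missed the threshold (limma adjusted p = 0.0572, and 0.0365 with voom on recovered fragments). SLE123 mice had 9.13, 14.8 and 15.1 FPKM without and 12.7, 17.0 and 14.7 FPKM with treatment, above every B6 mouse. Treatment moved Cxcl10 in SLE123 by 0.20 ± 0.20 with overlapping groups (limma adjusted p = 0.685), and the responses of the strains differed by -0.45 ± 0.29 (limma interaction, adjusted p = 0.360). The Cxcl10 gene lies inside Art3 on the other strand and shares 133 bases of transcript with it, and Art3 was at 0.471 to 0.993 FPKM in B6 and 2.03 to 3.64 FPKM in SLE123 mice. Art3 was looked at after the Cxcl10 values were seen, and its part in the Cxcl10 difference was not tested.

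Cxcl9 (ENSMUSG00000029417, chr5:92321347-92328079, minus strand), the other interferon-induced Cxcr3 ligand measured, had 0 fragments in all 3 untreated B6 libraries, which allows up to 0.0571 to 0.0642 FPKM per library. It was at 0.102, 0.0210 and 0.0819 FPKM in treated B6, at 0.0417, 0.0553 and 0.306 FPKM in untreated SLE123 and at 0.0409, 0.0913 and 0.131 FPKM in treated SLE123 mice. No library had more than 21 fragments of Cxcl9, and the highest was the library with the highest B cell marker sum. Cxcl16 (ENSMUSG00000018920, chr11:70453983-70459984, minus strand) was at 0.143 to 0.299 FPKM in untreated B6, 0.181 to 0.273 in treated B6, 0.218 to 0.564 in untreated SLE123 and 0.138 to 0.308 FPKM in treated SLE123 mice. The Cxcl16 groups all overlapped, at 7 to 36 fragments per library, and its transcripts share 552 bases with those of Zmynd15 on the other strand. Neither gene reached the filter, so neither was tested.

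**Figure D1:**
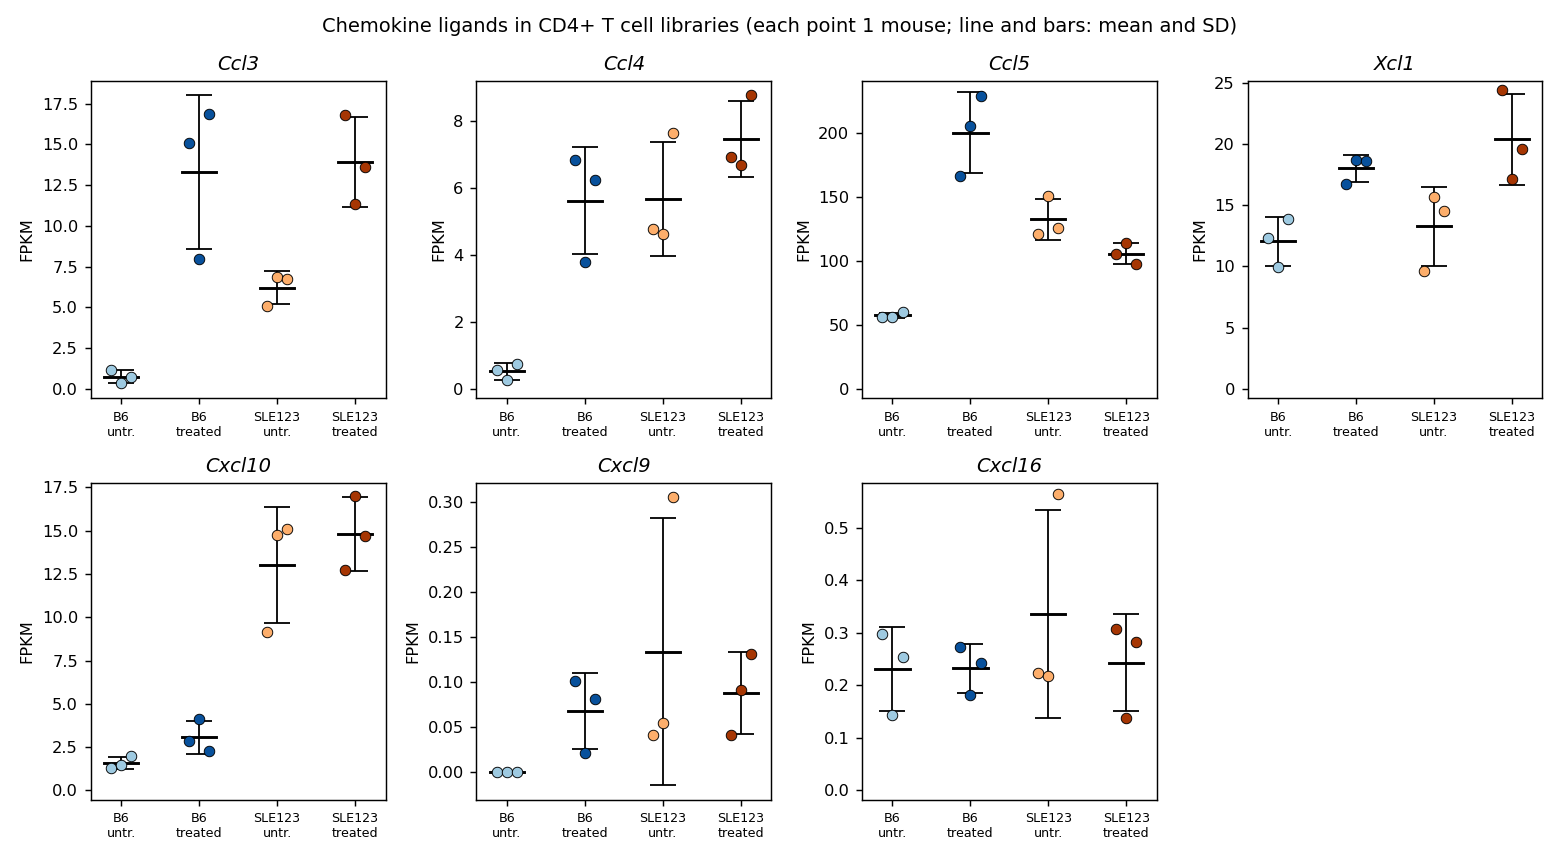
FPKM (vertical axis) of the 7 ligands in untreated and treated B6 and SLE123 mice, with 1 point per mouse and the mean and SD of 3 mice as line and bars; each panel has its own scale. Ccl3 and Ccl4 are lowest in untreated B6, Ccl5 is highest in treated B6, Cxcl10 separates the strains, and Cxcl9 and Cxcl16 stay under 0.6 FPKM.

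Among all tested genes, 14.9% were called in treated against untreated B6 and 8.74% were called higher, at an adjusted p under 0.05. Of the 3 members tested there without having been chosen on the response, Ccl4 and Xcl1 were called higher and Cxcl10 was not called. In each of the 5 members that passed the filter every treated B6 mouse lay above every untreated B6 mouse, as did 19.4% of all genes, and the choice of Ccl3 and Ccl5 fixed that for those genes. In SLE123, 0.0381% of all genes were called and none of Ccl4, Xcl1 and Cxcl10, by limma or by voom. Of these 3, 1 had an unadjusted p under 0.05, Xcl1 at 0.0189, as did 1369 of the 13115 genes tested (10.4%). Treated SLE123 mice lay above all untreated ones for Ccl3 and Xcl1, as did 13.7% of all genes, and below them for Ccl5, as did 6.02%. The interaction was called for 3.64% of all genes, with a lower response in SLE123 for 2.38%, and of the same 3 members it was called for Ccl4, which was lower.

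Without treatment, SLE123 mice had more Ccl4 and Cxcl10 than B6 mice. On the log2(FPKM + 1) scale Ccl4 was higher by 2.12 ± 0.20 (SE, limma adjusted p = 0.000262) and Cxcl10 by 2.41 ± 0.20 (limma adjusted p = 0.000135), while Xcl1 differed by 0.11 ± 0.19 with a 95% interval from -0.34 to 0.56 (limma adjusted p = 0.657). In this comparison 42.9% of all genes were called, and 22.8% of all genes were called higher in SLE123. Ccl3 and Ccl5 were higher in untreated SLE123 mice by 2.06 ± 0.19 and 1.18 ± 0.10, given without a test. In all 4 of these genes every untreated SLE123 mouse lay above every untreated B6 mouse, as did 29.1% of all genes. This comparison and the treated against untreated B6 comparison share the 3 untreated B6 mice. Alb divided the untreated strains as well, at 28.2 to 30.1 FPKM in B6 and 0 to 0.0296 FPKM in SLE123. Strain and what set these libraries apart in Alb thus coincide here, and the part of the latter was not tested.

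Averaged over treatment, which was not used to choose any member, Ccl3, Ccl4 and Cxcl10 were higher in SLE123 than in B6. For Ccl3 and Ccl4 most of this difference lay in the untreated mice. Treated B6 and treated SLE123 mice overlapped, with means of 13.3 and 13.9 FPKM for Ccl3 and 5.61 and 7.45 FPKM for Ccl4. The log2(FPKM + 1) difference was 1.09 ± 0.18 (SE) for Ccl3 (limma adjusted p = 0.000292), 1.25 ± 0.15 for Ccl4 (limma adjusted p = 3.22e-05) and 2.19 ± 0.14 for Cxcl10 (limma adjusted p = 2.55e-07). Ccl5 differed by 0.14 ± 0.08 with a 95% interval from -0.04 to 0.32 (limma adjusted p = 0.167), and Xcl1 by 0.13 ± 0.12 (limma adjusted p = 0.370). The Ccl5 average joins opposite differences, since SLE123 mice were above B6 mice without treatment and below them with it. The sign of the Ccl5 and Xcl1 differences turned when values were rescaled to TPM, to -0.14 and -0.13. For Ccl5 it was 0.23 (limma adjusted p = 0.0292) when fragments of immunoglobulin genes were left out of the scaling. In this comparison 60.6% of all genes were called and 31.5% were called higher in SLE123, so a call in itself did not set a member apart. Without treated SLE123 mouse 1 and untreated SLE123 mouse 3 the differences of Ccl3, Ccl4 and Cxcl10 were 0.99, 1.17 and 2.18.

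**Figure D2:**
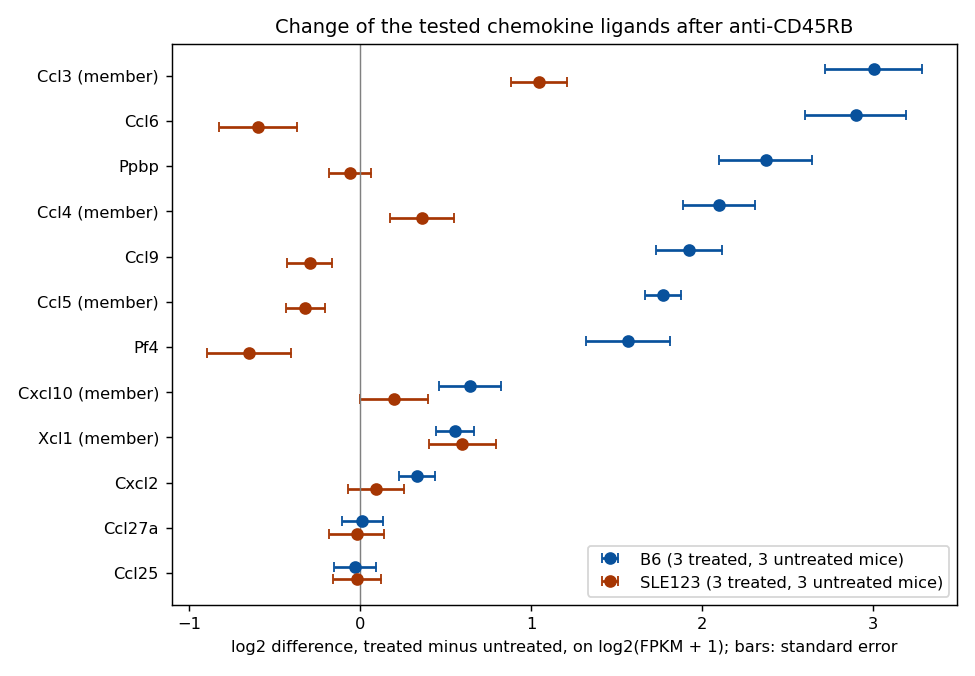
Log2 difference between treated and untreated mice on the log2(FPKM + 1) scale (horizontal axis) for the 12 ligands that passed the filter, in B6 (blue) and SLE123 (brown), with standard errors as bars and 3 treated and 3 untreated mice per strain. Ccl3, Ccl4, Ccl5, Ccl6, Ccl9, Pf4 and Ppbp lie right of 1.5 in B6, while in SLE123 Ccl3 alone lies right of 1 and Ccl5, Ccl6, Ccl9 and Pf4 lie at -0.30 or lower.

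Levels per length placed Ccl5 first among the ligands, and the members together made up 85.0% to 93.3% of the summed ligand FPKM in a library. The ligand sum was 75.8 to 83.7 FPKM in untreated B6, 245 to 299 in treated B6, 162 to 208 in untreated SLE123 and 166 to 179 FPKM in treated SLE123 mice. The ratio of Ccl3 to Ccl4 FPKM was 0.969 to 2.01 in untreated B6, 2.10 to 2.71 in treated B6, 0.883 to 1.48 in untreated SLE123 and 1.55 to 2.43 in treated SLE123 mice. In both strains every treated mouse had a higher ratio than every untreated mouse of its strain. The ratio contains Ccl3, so it is a description. Its lowest values in B6 rest on the few fragments of both genes in untreated B6 mice.

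Of the other ligands, Ccl6, Ccl9, Pf4 and Ppbp rose in treated B6 mice, 4 of 7 tested, against 8.74% of all genes called higher. Ccl6 and Ccl9 are CC ligands of myeloid cells, and Pf4 and Ppbp are stored in platelets. On the log2(FPKM + 1) scale the changes were 2.90 for Ccl6 (limma adjusted p = 0.00239), 1.92 for Ccl9 (limma adjusted p = 0.00233), 2.37 for Ppbp (limma adjusted p = 0.00359) and 1.57 for Pf4 (limma adjusted p = 0.0104). None of the 7 was called in SLE123, where Ccl6, Ccl9, Ppbp and Pf4 differed by -0.60, -0.30, -0.06 and -0.65, and the interaction was called for all 4. Of all genes, 3.64% were called in the interaction. The median difference of the 4 other CC ligands in B6 was 0.97 and of the 3 other CXC ligands 1.57, against 0.00 over all genes. Ccl25, Ccl27a and Cxcl2 were not called in either treatment comparison. Cxcl2, a neutrophil attractant, was higher in untreated SLE123 than in untreated B6 mice by 0.83 (limma adjusted p = 0.00173).

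Receptors of the members were measured in the same cells. Cxcr3, the receptor of Cxcl9 and Cxcl10, was at 33.1, 37.4 and 38.8 FPKM in untreated B6 and 81.1, 86.6 and 79.3 FPKM in untreated SLE123 mice. Its difference between the untreated strains was 1.16 ± 0.09 (SE) on the log2(FPKM + 1) scale (limma adjusted p = 8.43e-05), and all SLE123 mice were above all B6 mice. After treatment Cxcr3 differed by 0.27 in B6 (limma adjusted p = 0.0532) and 0.07 in SLE123 (limma adjusted p = 0.703), so neither change passed the test.

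Cxcr6, the receptor of Cxcl16, was at 39.9 to 42.2 FPKM in untreated B6, 38.1 to 43.6 in treated B6, 36.2 to 49.7 in untreated SLE123 and 54.7 to 69.0 FPKM in treated SLE123 mice. The treated SLE123 mice were the highest 3 of the 12, but the SLE123 difference of 0.53 ± 0.14 (SE) did not pass the test (limma adjusted p = 0.437). Cxcr6 thus stood far above its ligand in FPKM in every library. Xcr1, the receptor of Xcl1, was at 0.236 to 0.760 FPKM. Ccr1, a receptor of Ccl3 and Ccl5, and Ccr3, a receptor of Ccl5, did not reach the filter. Ccr1 was at 0 to 0.0439 FPKM in untreated B6, 0.324 to 0.677 in treated B6, 0.342 to 1.52 in untreated SLE123 and 0.0937 to 0.336 FPKM in treated SLE123 mice, and Ccr3 was highest, at 1.68 FPKM, in untreated SLE123 mouse 3.

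**Figure D3:**
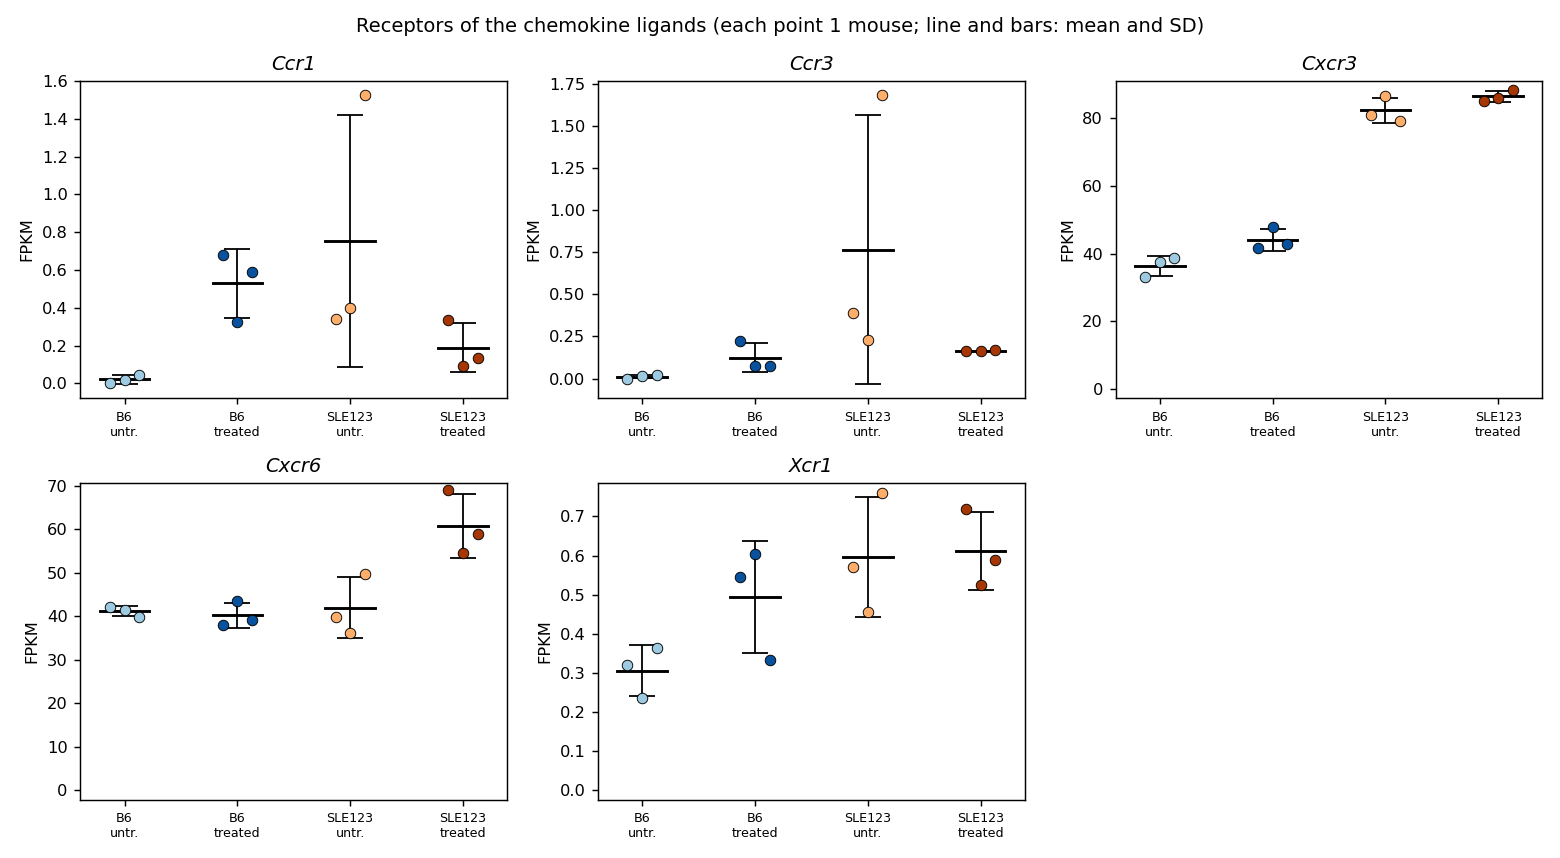
FPKM (vertical axis) of 5 receptors of the members in untreated and treated B6 and SLE123 mice, with 1 point per mouse and the mean and SD of 3 mice as line and bars. Cxcr3 lies higher in both SLE123 groups than in both B6 groups, and Cxcr6 is highest in treated SLE123 mice.

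Over the list of 24 receptor genes, 15 were tested, of which 6 rose and 2 fell in treated B6 mice and none was called in SLE123 by limma. In B6 this is 53.3% of the 15, against 14.9% of all genes called. Ccr2, the receptor for monocyte-attracting ligands, rose by 0.81 on the log2(FPKM + 1) scale (limma adjusted p = 0.00144), and Cxcr4, the receptor of Cxcl12, by 0.63 (limma adjusted p = 0.00431). Cx3cr1, Ccr6, Ccr10 and Ccrl2 rose by 0.54 to 0.88, and the call of Ccr10 was lost in 9 of 13 alternatives. Ccr7, which guides naive T cells to lymph nodes, fell by 0.24 (limma adjusted p = 0.0149), and Cxcr5, which guides cells to B cell follicles, fell by 0.68 (limma adjusted p = 0.0454), a call lost in 6 of 14 alternatives. The median over the 15 was 0.28 in B6 and 0.14 in SLE123, against 0.00 and 0.04 over all genes. Between the untreated strains 9 receptors were higher in SLE123 and Ccr7 was lower, with a difference of -1.48 (limma adjusted p = 0.00469). In that comparison 42.9% of all genes were called, and 22.8% were called higher in SLE123.

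Of 23 known regulators of the ligands tested, 6 rose and 1 fell in treated B6 mice, which is 30.4% against the 14.9% of all genes called, and none was called in SLE123 by limma. Tbx21, the T-bet gene of Th1 cells, rose by 0.48 on the log2(FPKM + 1) scale (limma adjusted p = 0.00660), Ifng by 0.40 (limma adjusted p = 0.0227) and Irf8, an interferon regulatory factor of myeloid and B cells, by 0.88 (limma adjusted p = 0.00823). Nfkb2, Irf7 and Klf13, the last a known activator of Ccl5, rose by 0.40, 0.35 and 0.15, and Tnf fell by 0.39. The calls of Klf13, Tnf and Ifng were lost in 9, 6 and 5 of 14 alternatives. Irf1, which acts downstream of interferon, differed by 0.08 in B6 (limma adjusted p = 0.163). Between the untreated strains Ifng and Eomes were higher in SLE123 by 1.21 and 1.13, and Klf13 and Ifngr2 had differences of -0.72 and -1.10. Of the proteases that process ligands, Dpp4, which trims Cxcl9 and Cxcl10, differed by -0.89 between the untreated strains (limma adjusted p = 0.00165), and Adam10 and Adam17, which can shed Cxcl16, were not called there or after treatment.

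Cytotoxic effector genes, which T and NK cells express with Ccl3, Ccl4 and Ccl5, were called higher in treated B6 mice for 8 of 13 and lower for 1. Of all genes tested there, 8.74% were called higher and 14.9% were called in either direction. Gzma, Gzmb, Klrg1 and Nkg7 rose by 2.60, 1.30, 1.65 and 1.02 on the log2(FPKM + 1) scale (limma adjusted p = 0.00339, 0.00173, 0.000363 and 0.00114), and Prf1, the perforin gene, fell by 0.45 (limma adjusted p = 0.00750). In SLE123 none of the 13 was called by limma, with Gzmb at 0.84 (adjusted p = 0.159). Of 13 immediate early genes, which T cell receptor signals induce, Egr1, Egr2, Egr3, Nr4a3 and Junb fell by 0.41 to 0.66 in treated B6 mice, and none was called in SLE123. The calls of Junb and Egr1 were lost in 8 and 5 of 14 alternatives, and those of Egr2 and Nr4a3 in 4 each. Of 13 interferon-stimulated genes tested, 5 rose in treated B6 mice (Gbp3, whose call was lost in 8 of 14 alternatives, Ifit1, Igtp, Irgm2 and Usp18), none was called in SLE123, and 10 were higher in untreated SLE123 than in untreated B6 mice, as Cxcl10 was. Between the untreated strains 22.8% of all genes were called higher in SLE123.

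Markers of other cell types moved in the same comparison as Ccl3, Ccl4 and Ccl5. In treated B6 mice 3 of 4 tested NK markers, 4 of 5 B cell, 3 of 6 macrophage and monocyte, 4 of 5 neutrophil, 3 of 3 dendritic, 5 of 7 basophil and mast cell and 3 of 3 platelet markers rose. Over all genes 8.74% were called higher. In the other lists 1 of 4 plasma cell, 1 of 2 innate-like T, 1 of 2 eosinophil, 2 of 2 erythroid, 0 of 1 CD8 T and 0 of 5 liver markers rose. The CD8 T marker tested, Cd8b1, was at 10.9 to 12.8 FPKM in untreated and 12.1 to 17.4 FPKM in treated B6 mice. Cd8a did not reach the filter, and was at 0.159 to 0.257 FPKM in untreated and 0.644 to 1.92 FPKM in treated B6 mice, without overlap. Of the 6 CD4 T markers 2, Cd28 and Cd3g, were called lower. The NK marker sum was 14.6 to 15.1 FPKM in untreated and 28.2 to 41.1 FPKM in treated B6 mice, and 4.82 to 7.93 and 11.0 to 14.4 FPKM in untreated and treated SLE123 mice. The SLE123 rise lay mostly in Klrb1c, at 3.48 to 5.73 FPKM in untreated and 9.46 to 11.4 FPKM in treated mice. None of the 4 tested NK markers was called in SLE123, and their median difference was 0.07 on the log2(FPKM + 1) scale. The basophil and mast cell sum was 5.07 to 6.99 FPKM in untreated and 18.2 to 36.1 FPKM in treated B6 mice, but 101 to 114 FPKM in untreated and 34.3 to 43.1 FPKM in treated SLE123 mice. The macrophage and monocyte sum was 8.39 to 14.4 FPKM in untreated and 39.0 to 113 FPKM in treated B6 mice, and 32.9 to 99.9 and 18.2 to 24.6 FPKM in untreated and treated SLE123 mice. Those of this list that rose in B6 were Lyz2, Csf1r and Itgam, and Lyz2, at 27.7 to 94.7 FPKM, made up most of the treated B6 sum. C1qa and C1qb were at 0 to 0.0587 FPKM in treated B6 mice. In SLE123 the basophil markers Mcpt8 and Prss34 fell by 1.59 and 1.91 and the eosinophil marker Prg2 fell by 2.02 on the log2(FPKM + 1) scale (limma adjusted p = 0.0208, 0.0111 and 0.0328).

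None of these lists had a marker at 0 in every library of a group, except the liver list in untreated SLE123 mice. CD4 T cell markers summed to 1769 to 1801 FPKM in untreated and 1644 to 1703 FPKM in treated B6 mice, and to 1509 to 1907 and 1816 to 1844 FPKM in untreated and treated SLE123 mice. Several of these cell types make Ccl3, Ccl4, Ccl5 or Xcl1 themselves. The part of these markers in the chemokine differences was not tested.

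**Figure D4:**
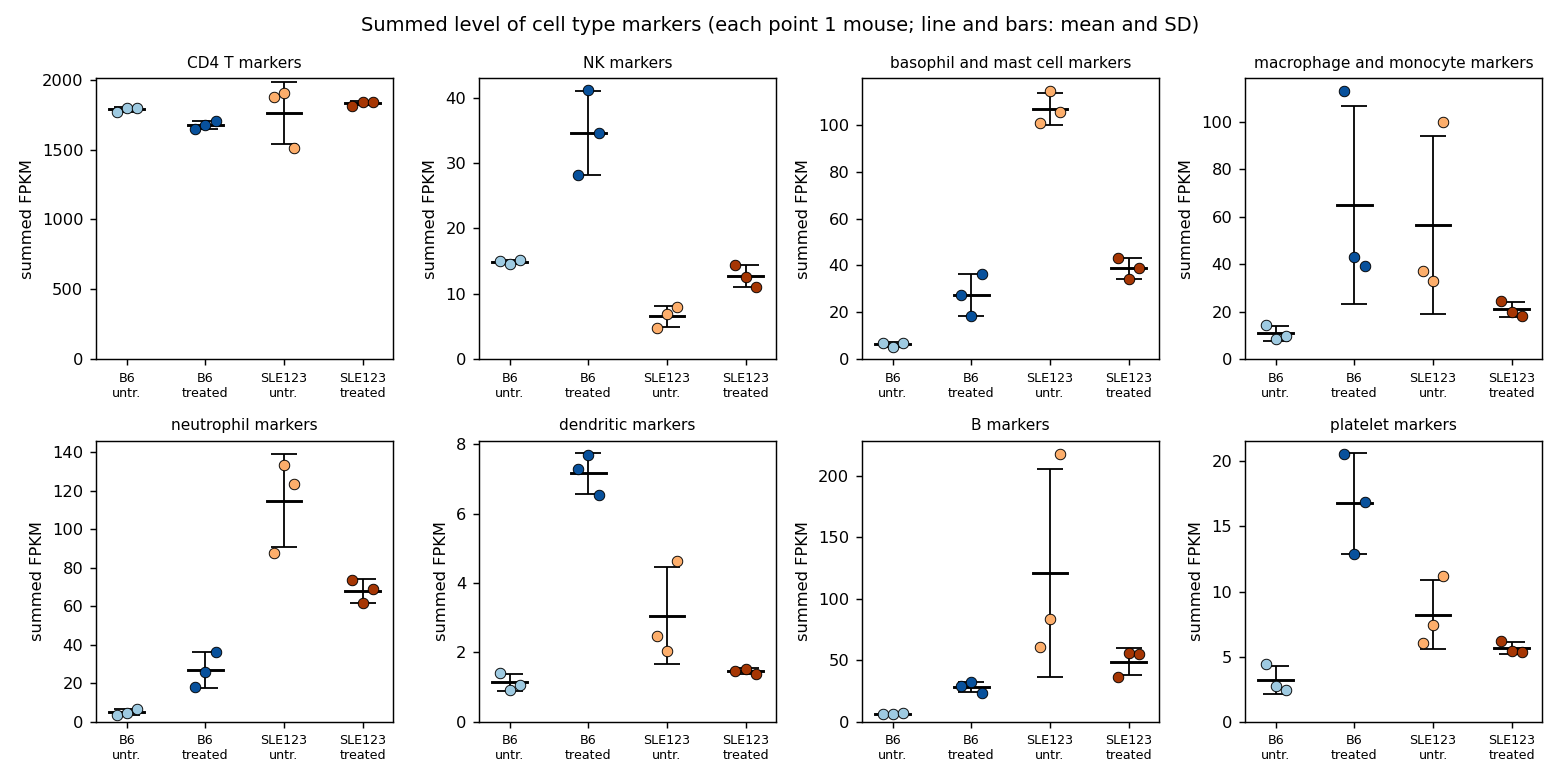
Summed FPKM (vertical axis) of 8 marker lists in untreated and treated B6 and SLE123 mice, with 1 point per mouse and the mean and SD of 3 mice as line and bars. All lists but that of CD4 T cells are higher in treated than in untreated B6 mice. In SLE123 only the NK list is higher in all 3 treated mice, mostly through Klrb1c. The basophil and mast cell, macrophage and monocyte, neutrophil, dendritic and B lists are lower in all 3 treated SLE123 mice.

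The genes most like each ligand were ranked by Pearson's r of log2(FPKM + 1) over the 12 mice, as a description. The 12 points share 4 groups and most of their spread lies between them, so r over the deviations from group means is given as well. For Ccl3 the 3 highest were Lgals1 (r = 0.963, 0.166 within groups), Gzmb (0.959, 0.689) and Gata2 (0.956, 0.826). For Ccl4 they were Plp2 (r = 0.979, 0.673 within groups), Lgals3 (0.977, 0.687) and Plek (0.974, 0.761). For Ccl5 they were Trip10 (r = 0.949, 0.430 within groups), Zbtb7a (0.946, 0.135) and Cd9 (0.945, 0.458), and for Cxcl10 Nfkbie (0.989, 0.880), Bhlhe40 (0.989, 0.732) and Srgn (0.989, 0.803). For Xcl1 they were Stx2 (r = 0.934, 0.874 within groups), Cish (0.923, 0.822) and Rab29 (0.862, 0.483). For Cxcl9 and Cxcl16, at few fragments, they were Sik1, Sdc3 and Cd180 and Pex7, Gng12 and Tle6, with r from 0.836 to 0.934.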

How the data were processed

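RNA-Seq was carried out on CD4+ T cells of 12 mice in 4 groups of 3, and titles gave the group of every library. The authors deposited FPKM values per Ensembl gene and library. The submitters' processing notes name CASAVA 1.8, STAR and the mm10 build, while the counting program, its strand setting and the annotation are not given in the sources used here. The authors tested pairs of conditions with DESeq2, which was not run here. The deposited values are FPKM and not counts, and fragments recovered from them were fitted with voom as an alternative.

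Symbols and coordinates came from GENCODE M21 (GRCm38), which matched 34490 of 35275 identifiers, and promoters from RefSeq GRCm38.p6. In 100% of the 23230 genes above 0, FPKM values came as whole multiples of what 1 fragment is worth, within 0.01 of a whole number, and fragments were recovered from them (13562933 to 23641603 per library). The recovered fragments are the smallest whole numbers that fit. A gene above 0 in 1 library passes by construction, and fragments of genes seen in few libraries can be understated. Floors of 3 fragments cover counting error only. Values were transformed as log2(FPKM + 1), a scale that understates the change of low genes. Genes averaging 0.5 FPKM or more, 13115 in number, were fitted with limma 3.58.1 in R 4.3.3 (lmFit, then eBayes with a trend), with Benjamini-Hochberg adjustment over all of them and a threshold of 0.05. Comparisons within a strain and between untreated strains used their 6 mice, and the interaction (response in SLE123 minus response in B6) and the strain average used all 12. The fit was tested on simulated data. Transcript matches were found with BLAST+ 2.17.0.

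The alternatives tried were rescaling to TPM, voom on recovered fragments, the replicate number as a block, a single fit of all 12 mice, leaving out each mouse in turn, no filter or one at 1 FPKM, and a pseudocount of 0.1. Scaling without immunoglobulin genes and leaving out 2 libraries that stand apart were chosen after seeing the data.

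The members and gene lists were chosen with earlier results of these data known. Named genes were the 7 members, their receptors, up to 8 called genes and the 4 most abundant genes of each list as described, and the 3 genes most like each member. Some genes that this rule covers are not reported here. Motifs and overlapping genes were chosen after the values were seen. Mice of a group are taken as separate samples from the titles, and p-values measure the spread between them.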

Additional observations from a re-analysis of the deposited data

Results flagged for a closer look

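Responses to treatment that differed between the strains were found among the ligands and the listed genes around them. Each value is the log2(FPKM + 1) difference in SLE123 minus that in B6, and each was called by the limma interaction term except those of Ccl3 and Ccl5, whose treatment responses were used to choose them and which were not tested. Among the members the values were -1.74 for Ccl4, -1.96 for Ccl3, which was higher after treatment in both strains, and -2.09 for Ccl5, where every treated B6 mouse was above and every treated SLE123 mouse below its untreated group.

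Among the other ligands the values were -3.50 for Ccl6, -2.22 for Ccl9, -2.22 for Pf4 and -2.43 for Ppbp. Among the receptors they were -0.84 for Ccr10, a call lost in 15 of 19 alternatives, and -0.86 for Cxcr4. Among the effector genes they were -2.22 for Gzma, -1.56 for Klrg1 and -1.01 for Nkg7, and among regulators -1.31 for Irf8. The interferon-stimulated gene Gbp4 had the only positive value among them, 0.76, a call lost in 14 of 20 alternatives. These genes include markers of platelets, and NK and myeloid marker sums moved in the same libraries. Their part in these differences was not tested.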

How the results depend on the processing

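The members' differences kept their direction under the alternatives except near 0. Rescaling to TPM moved the median of all genes by -0.35 between untreated strains, -0.26 in the strain average, 0.18 in SLE123 and 0.19 in the interaction. It turned Xcl1 to -0.25 between the untreated strains and, in the strain average, Ccl5 to -0.14 and Xcl1 to -0.13. Under the same rescaling Tbx21, Tnf and Irgm2 turned to -0.056, -0.067 and -0.017 between the untreated strains, and Ccr2, Cxcr4, Nfkb1, Stat4, Tbx21, Jak2, Adam10 and Ifit1 to -0.072, -0.078, -0.043, -0.074, -0.033, -0.025, -0.042 and -0.019 in the strain average. Xcl1 between untreated strains was -0.0089 without untreated B6 mouse 4 and -0.012 without untreated SLE123 mouse 2, the lowest of a range up to 0.31. Its interaction was -0.0035 with voom, -0.014 with immunoglobulin genes left out of the scaling, -0.013 without the 2 libraries that stand apart, and between -0.16 and 0.17 over single mice left out. Cxcl10 in SLE123 was -0.021 without untreated SLE123 mouse 1, with a range of -0.021 to 0.31 over single mice left out.

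Genes called in treated against untreated B6 numbered 1948, and 815 with all 12 mice in one fit and 675 to 1393 without single mice. The replicate block gave 0 calls in B6 and 34 in place of 478 for the interaction, and left 4 in place of 5 in SLE123. With the block the limma adjusted p was 0.0899 for Ccl4 and 0.156 for Xcl1 in B6 and 0.0605 for the Ccl4 interaction. The titles do not say whether replicate numbers pair the mice. Deviations of same-numbered mice from their group means correlated at -0.140 and -0.0936 in B6 and at 0.137, -0.161 and 0.266 in SLE123. Not every SLE123 mouse correlated best with its own number, but so few pairs cannot decide whether the numbers pair mice. In B6 only numbers 3 and 5 occur in both groups, so the block fit there had little to rest on. No paired analysis was possible for the comparisons between strains because a number marks different mice there. In SLE123 the count was 5, and 1 without a filter, 21 by TPM, 3 by voom, 53 with all 12 mice in one fit and 1 to 7 without single mice. Between untreated strains 3672 to 6469 were called without single mice against 5621, and in the interaction 205 to 2917, the highest without untreated SLE123 mouse 1. TPM changed the split of higher and lower calls between untreated strains from 2990 and 2631 to 1914 and 5974, and in the strain average from 4130 and 3815 to 2441 and 6915. Leaving immunoglobulin genes out of the scaling gave 3707 and 1723, and 5214 and 2783. The causes were not tested. Depth limits Cxcl9, Cxcl16 and the untreated B6 values of Ccl3 and Ccl4, which rest on 3 to 14 fragments per library.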
